A study of Mus musculus with 81 samples.

Results

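The mRNAs of 10 cytokine genes were followed across every RNA-seq library of a mouse study on the histone variant H3.3. The genes were taken by symbol, whatever their values, and are Tnf, Il1a, Il1b, Il1rn, Il6, Il12b, Il27, Il15, Il18 and Il10. They are 10 of the 55450 genes listed in the time course files. The series held 81 libraries of macrophages or their progenitors, of which 79 could be placed in a group.

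H3.3 is encoded by H3f3a and H3f3b, and all mice carried both genes flanked by loxP sites (H3f3a fl/fl H3f3b fl/fl) on a C57BL/6 background. Mice without Cre are called WT. Mice that also carried LysM cre/cre, in which Cre replaces both copies of Lyz2 and acts in macrophages and granulocytes, are called cKO. Bone marrow of young adult mice was cultured in L929-conditioned medium, a source of M-CSF, to give bone marrow-derived macrophages (BMDMs). WT and cKO cells were sampled in a time course on days 3, 5 and 7 with 3 libraries per group, and on day 8 without or with 12 h of interferon-gamma (IFNg). In an antibody experiment, BMDMs were grown without antibody, with an IgG1 kappa isotype control antibody (control antibody) or with an antibody against the interferon receptor chain IFNAR1, with 3 libraries per arm and genotype. Peritoneal macrophages, isolated with a kit and amplified before sequencing, came from 3 WT and 3 cKO samples. Finally, 3 sets of 3 WT and 3 cKO BMDM libraries, told apart by the spelling of their titles and called sets A, B and C, were sequenced with cells in which the cKO was combined with a KO of Sting, Mavs or Irf7 (Sting dKO, Mavs dKO and Irf7 dKO, 3 libraries each). The labels do not tie a dKO to 1 of the sets. In the order of the samples, Sting dKO follows set A, Mavs dKO set B and Irf7 dKO set C. Replicates are labelled biological replicates, and nothing further says which came from separate mice, so p-values measure the spread between these libraries.

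Cytokines are secreted proteins by which macrophages steer inflammation. Tnf, Il1a, Il1b and Il6 encode early inflammatory signals, and Il1rn encodes a decoy ligand that occupies the IL-1 receptor without activating it. Il12b and Il27 encode subunits of heterodimers that act on T cells, Il15 and Il18 encode cytokines that act on lymphocytes and NK cells, and Il10 encodes an inhibitor of macrophage activation. Il1b and Il18 are made as precursors that caspase-1 cleaves, so their mRNA is not a measure of secreted cytokine.

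Values are CPM, gene counts scaled to a common library size with TMM normalisation within each experiment, so levels from different experiments are set side by side only with that limit. Differences are log2 fold changes with their standard errors from edgeR's quasi-likelihood test, and a gene was called where its Benjamini-Hochberg adjusted p over all genes tested was under 0.05. In these bulk samples, fewer cells of a type and less RNA per cell cannot be told apart. Where groups are said not to overlap, the share of all genes that did likewise was not counted, so this is a description only. Total counts ran from 14419697 to 20220329 in the time course, 3614967 to 10498769 on day 8, 7625225 to 23381318 in peritoneal cells and 21504555 to 45581528 in the sets and dKOs, and the arms with and without antibody held 5295144 to 34380735. H3f3a was at 6.95 to 27.3% of the WT mean in every cKO group, counted over all its exons, including those outside the loxP sites. H3f3b was at 75.0 to 89.5% in most experiments, but at 11.5 to 13.3% in the arms with and without antibody, and Lyz2 was at 0.271% or less in every cKO group. Cre and the loss of Lyz2 came with the H3.3 deletion in every cKO group, so their effects cannot be told apart. Tmem173, the gene of STING, was at 5.01 to 6.10 CPM in Sting dKO against 68.2 to 91.7 CPM in the cKO sets, and Irf7 at 98.3 to 112 CPM in Irf7 dKO against 249 to 470.2 CPM. Mavs was at 37.2 to 37.9 CPM in Mavs dKO. In cKO it was at 42.9 to 51.6 CPM in set A, 48.5 to 51.0 CPM in set B and 36.0 to 41.9 CPM in set C. Mavs dKO thus lay below cKO of sets A and B and overlapped with cKO of set C. These counts cover whole genes, including exons outside a deleted part, so they do not measure the deletion itself. The paper verified the Sting, Mavs and Irf7 deletions by genomic PCR, qRT-PCR and RNA-seq tracks. The 8 macrophage markers (Adgre1, Csf1r, Cd68 and others) had counts in every group.

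For 2 cKO day 8 libraries, the title says IFNg where the library name does not, or the reverse, and both were left out of every test. The cKO IFNg replicate 1 was the shallowest library (3614967 counts), 57.1% of its reads were unmapped against 12.6 to 18.3% in the other day 8 libraries, and it stood apart from replicate 2 in several members, so the cKO IFNg results are given with and without it. Stromal markers summed to 344 CPM in that library, against 54.4 CPM in replicate 2 and 49.1 and 113 CPM in the untreated cKO libraries, and the part of these markers and of the unmapped reads in its values was not tested.

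Of the 10 members, 7 had a reference promoter window in RefSeq (assembly GRCm38.p6), 9 windows in all. Il10, Il15 and Il27 had none, so no motif was searched for in them. The last 100 bases before the annotated start are shown for the members that hold a searched motif within them and for Il12b, which had the highest log2 fold changes between genotypes, with a TATA motif (TATAAA) or a kappaB motif (GGG and TTTCC with any 2 bases between them) in capitals.
Tnf, chr17:35202008-35202107, minus strand: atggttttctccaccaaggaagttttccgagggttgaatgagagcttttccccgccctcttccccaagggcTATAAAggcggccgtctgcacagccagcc
Il1a, chr2:129309973-129310072, minus strand: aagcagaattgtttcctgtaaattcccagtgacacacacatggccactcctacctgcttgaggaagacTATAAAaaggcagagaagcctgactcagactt
Il1b, chr2:129371140-129371239, minus strand: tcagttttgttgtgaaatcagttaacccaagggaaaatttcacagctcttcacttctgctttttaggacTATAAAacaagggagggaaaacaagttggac
Il1rn, chr2:24345271-24345370, plus strand: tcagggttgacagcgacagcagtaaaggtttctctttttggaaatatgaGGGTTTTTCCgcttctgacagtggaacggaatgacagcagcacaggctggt
Il6, chr5:30013014-30013113, plus strand: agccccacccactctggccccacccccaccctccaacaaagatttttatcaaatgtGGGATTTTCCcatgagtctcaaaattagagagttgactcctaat
Il12b, chr11:44399963-44400062, plus strand: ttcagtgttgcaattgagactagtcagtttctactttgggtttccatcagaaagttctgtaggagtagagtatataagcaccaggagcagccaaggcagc
The TATA motif began 29, 32 and 31 bases before the start in Tnf, Il1a and Il1b. The kappaB motif began 44 bases before the start of Il6 and 51 bases before the most downstream of the annotated starts of Il1rn. In Il18 the TATA motif lay on the opposite strand, 175 to 170 bases before the start and so outside the last 100 bases, and that sequence is not shown. Within 250 bases, searched on both strands, 12.4% of 32851 reference windows held the TATA motif and 1.41% the kappaB motif. The ISRE motif (GAAA and GAAA, 2 bases apart), in 2.98% of windows, and the GAS motif (TTC and GAA, 3 bases apart), in 7.02%, were in none of the members' windows, and the Il12b window held none of the 4 motifs. A match is a description of the letters, not of binding.

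Of the genes followed most closely here, Tnf lies on chromosome 17 (35199381 to 35202007), Il12b on chromosome 11 (44400063 to 44414033), Il1rn on chromosome 2 (24336853 to 24351494), Il15 on chromosome 8 (82331632 to 82403222), Il18 on chromosome 9 (50554827 to 50581840), Il27 on chromosome 7 (126589010 to 126594941) and Il10 on chromosome 1 (131019845 to 131024974) of GRCm38, and counts cover their exons.

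Tnf was the most abundant member in every BMDM group. Scaled to exon length, its mean in WT cells was 82.0 CPM per kb on day 3, 28.2 on day 8 without treatment, 14.8 without antibody, 20.4 in set A, 47.5 in set B and 15.1 in set C. In peritoneal macrophages the order differed: Il18 was first (16.7 CPM per kb in WT and 16.1 in cKO) and Il15 second (7.92 and 8.42), while Tnf was at 0.168 and 0.437 CPM per kb. Il15 was second in both genotypes in every antibody arm. Il6 and Il12b were at or near 0 in WT BMDMs, with at most 0.302 CPM per kb of Il6 and 0.369 of Il12b, the latter after IFNg.

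In the time course, cKO was compared with WT on each day. Il18, Il10 and Il12b had their higher values in cKO on day 3, and Il18 also on day 5. Il18 was called on day 3 and on day 5, and no member passed on day 7. Of the 10 members, 8 were tested on each day, since Il6 and Il12b had too few counts. The call of 1 member on day 3 stands beside 7.73% of all genes, the call of 1 on day 5 beside 2.83%, and the 0 calls on day 7 beside 1.4%. On day 7, 1 member had an unadjusted edgeR p under 0.05 and DESeq2 called 0. The median log2 fold change of the 8 members tested was 0.69 on day 3, 0.79 on day 5 and -0.07 on day 7, against 0.04, 0.01 and 0.01 over all genes tested.

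Il18, the caspase-1 substrate, was at 2.59, 2.70 and 2.36 CPM in WT and 3.65, 4.04 and 4.23 CPM in cKO on day 3. On day 5 it was at 4.48, 4.14 and 3.82 CPM in WT and 9.42, 7.01 and 6.72 CPM in cKO. The genotypes did not overlap on either day. cKO exceeded WT by 0.64 ± 0.18 on the log2 scale (SE, adjusted p = 0.0369) on day 3 and by 0.89 ± 0.17 (adjusted p = 0.0115) on day 5. The day 3 call was lost whichever of the 6 libraries was left out (adjusted p 0.0663 to 0.112), and the day 5 call without WT replicate 2, WT replicate 3 or cKO replicate 1 (adjusted p 0.0602 to 0.0764). On day 7, Il18 was at 5.33 to 6.94 CPM in WT and 7.0 to 8.29 CPM in cKO, a difference of 0.39 ± 0.17 (adjusted p = 0.250).

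Il10, the inhibitor, was at 1.91, 0.821 and 1.40 CPM in WT and 6.29, 3.35 and 3.03 CPM in cKO on day 3, with no overlap. Its log2 fold change of 1.62 ± 0.54 did not pass (adjusted p = 0.0790). On day 3 same-numbered WT and cKO libraries deviated together, and with the replicate number as a block the value was 1.58 and passed (adjusted p = 0.00311). Without cKO replicate 1 it was 1.19 (adjusted p = 0.288).

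Il12b, the subunit shared by IL-12 and IL-23, was almost absent from WT cells. In WT on day 3 the 3 libraries held 1 count of Il12b in all, against 38 in cKO, where they stood at 0.943, 1.16 and 0.314 CPM. The depth-scaled ratio was 37.9 (95% exact interval 6.40 to 1536, counting error only). On day 5 the sums were 4 and 15 counts (ratio 3.72, 1.19 to 15.4), and on day 7 they were 0 and 8 counts, which put the exact 95% lower limit of the ratio at 1.70. Il6 held 3 counts in WT and 54 in cKO on day 3 (ratio 17.95, 5.83 to 89.8), with 2.51, 0.753 and 0.157 CPM in the 3 cKO libraries. Replicate 1 alone thus held most of the Il6 counts.

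Il15 was at 7.43, 8.33 and 8.48 CPM in WT and 8.86, 13.8 and 15.1 CPM in cKO on day 3 (0.64 ± 0.23, adjusted p = 0.109). The groups did not overlap, but the difference did not pass. Tnf, Il1a, Il1b, Il1rn and Il27 overlapped between genotypes on day 3. In WT, Tnf stood at 232, 73.8 and 97.6 CPM, and in cKO at 230.1, 85.7 and 115 CPM. Replicate 1 was the highest of its group in both genotypes for Tnf, Il1a, Il1b and Il1rn on that day, and in cKO its Il1b was 59.1 CPM against 5.27 and 4.03 CPM.

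On the later days other members lay apart by genotype without a call. On day 5, Il1rn was at 10.2, 11.4 and 12.4 CPM in WT and 60.1, 15.8 and 20.2 CPM in cKO (1.5 ± 0.89, adjusted p = 0.514). On day 7, Tnf was at 72.4, 14.9 and 74.8 CPM in WT and 144, 93.4 and 90.4 CPM in cKO (1.01 ± 0.52, adjusted p = 0.347). Every cKO library lay above every WT library in both. Il27 on day 7 was at 1.15, 1.19 and 1.45 CPM in WT and lower in each cKO library, at 1.06, 0.879 and 0.944 CPM (-0.39 ± 0.43, adjusted p = 0.687).

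The change of the cKO effect from day 3 to day 7 was tested itself, and 0 of 8 members passed, beside 0.0439% of all genes. At an unadjusted edgeR p under 0.05 the count was 3, and DESeq2 called 0. Of these, Il10 had the largest difference, -2.06 ± 0.76 (adjusted p = 0.221).

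**Figure D1:**
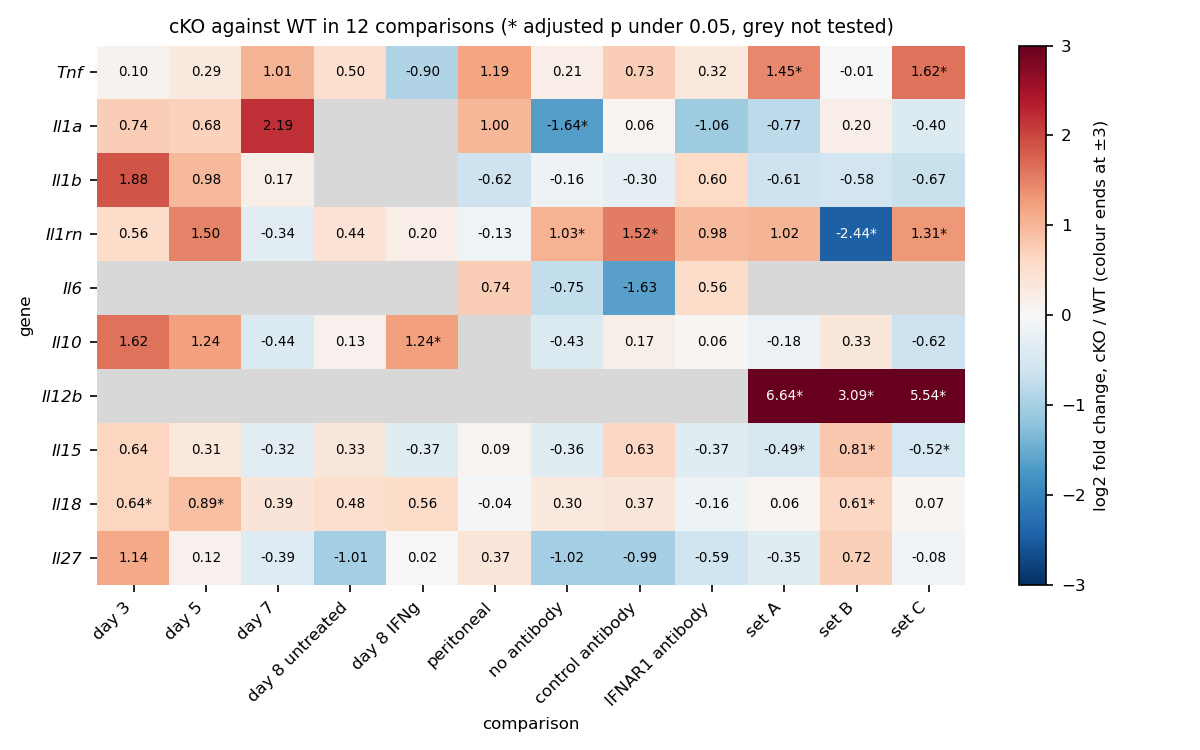
Log2 fold change of cKO against WT for each member (rows) in 12 comparisons (columns), printed in each cell and coloured from blue (lower in cKO) to red (higher), with an asterisk for an adjusted p under 0.05 and grey where a gene had too few counts to be tested. Il12b had the highest values, 6.64, 3.09 and 5.54 in sets A, B and C, and Il1rn was called higher in 3 comparisons and lower in set B (-2.44).

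From day 3 to day 7 the members moved in both directions. In WT, Il1a and Il1b fell while Il15 and Il18 rose, 4 of 8 members called beside 23.9% of all genes. That count includes Il1a, which held few counts after day 3. In cKO, Il1b fell and Il18 rose, 2 of 8 beside 14%. The median log2 fold change of the members tested was -0.34 in WT and -1.0 in cKO, against 0.05 and 0.01 over all genes.

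Il1b, encoding IL-1 beta, was at 9.0, 3.11 and 6.46 CPM in WT on day 3 and at 0.157, 1.26 and 0.414 CPM on day 7. It fell by 3.41 ± 1.07 on the log2 scale (adjusted p = 0.0318). The call was lost without day 3 replicate 1 or 3 or day 7 replicate 1 or 3 (adjusted p 0.0634 to 0.0888), and without day 7 replicate 2 the value was -4.40. In cKO it went from 59.1, 5.27 and 4.03 CPM to 1.18, 0.469 and 0.315 CPM, a change of -5.12 ± 1.08 (adjusted p = 0.00508). Without cKO day 3 replicate 1 that change was -2.83 (adjusted p = 0.0431), and without cKO day 7 replicate 1 it was -5.85.

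Il1a, encoding IL-1 alpha, was at 2.18, 0.293 and 0.562 CPM in WT on day 3 and at 0.0522, 0.0700 and 0.0517 CPM on day 7 (-3.96 ± 1.08, adjusted p = 0.0161). The groups did not overlap, and the call rested on day 3 replicate 1, without which the value was -2.78 (adjusted p = 0.0964). Summed over 3 libraries, Il1a held 47 counts in WT and 82 in cKO on day 3. On day 5 these sums were 8 and 13, and on day 7 they were 3 and 15. Il1a thus needed day 3 libraries, where it was high, to pass the count filter. Its calls between days are given as a description. In cKO the same-numbered libraries of days 3 and 7 deviated together, and a block on the replicate number added Il1a (-2.42, adjusted p = 0.0204), Il1rn (-2.68, adjusted p = 0.0156) and Il10 (-1.45, adjusted p = 0.00611), 5 calls in all. Without the block Il1a was at -2.51 ± 0.81 (adjusted p = 0.0503).

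Il15 rose in WT from the day 3 values above to 20.5, 28.5 and 16.5 CPM on day 7 (1.43 ± 0.23, adjusted p = 0.000812). In cKO it stood at 15.8, 18.7 and 17.9 CPM on day 7, all above the day 3 values, but the difference was 0.47 ± 0.23 (adjusted p = 0.189). Il18 rose in both genotypes, by 1.23 ± 0.18 in WT (adjusted p = 0.000324) and 0.98 ± 0.17 in cKO (adjusted p = 0.00136). These Il15 and Il18 calls held whichever library was left out.

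Markers of other cells moved with the days. The summed level of 10 neutrophil markers was 1592 to 3060 CPM in WT and 2755 to 4256 CPM in cKO on day 3, and 75.4 to 134 CPM and 90.7 to 278 CPM on day 7, with all 10 detected in each group. All 10 fell in both genotypes. The summed level of 6 dendritic cell markers on day 3 was 2.80 to 7.51 CPM in WT and 9.93 to 12.9 CPM in cKO, where Cd209a was at 0. On the days of the Il18 calls, further lists lay apart by genotype. On day 3, 7 B cell markers summed to 34.6 to 44.8 CPM in WT and 66.7 to 113 CPM in cKO, and 5 mast cell and basophil markers to 2.82 to 3.93 and 10.1 to 16.6 CPM, with every marker detected. On day 5, the 5 stromal markers summed to 13.2 to 42.9 CPM in WT, with Dcn at 0, and 68.2 to 96.5 CPM in cKO. The mast cell and basophil markers were then at 0.358 to 0.671 CPM in WT, with Fcer1a at 0, and 1.72 to 3.97 CPM in cKO, and the dendritic cell markers at 2.75 to 4.31 and 4.66 to 10.1 CPM. Their part in the cytokine values was not tested.

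Among genes of the same pathways, 0 of 2 tested partner subunits of the heterodimers were called between genotypes on day 3, 1 of 14 receptors was higher, 1 of 4 decoys and binding proteins, 2 of 9 processing and release genes, 1 of 9 feedback regulators and 5 of 15 other cytokines, and 0 of these lists had a lower member. Among all genes tested, 7.73% were called on day 3. The death ligand Tnfsf10 was higher by 3.68 (adjusted p = 0.00686), the macrophage growth factor Csf1 by 2.75 (adjusted p = 0.00327) and the inflammatory caspase Casp4 by 2.28 (adjusted p = 0.00384). The interferon gene Ifnb1 was higher by 5.77 (adjusted p = 0.0350). Its mean on day 3 was 0.0227 CPM in WT and 1.497 CPM (SD 1.099) in cKO. The Ifnb1 value is thus a ratio to a WT level near 0, and it is given as a description. On day 7 Il7 was the only gene of these lists called (2.0, adjusted p = 0.0490). Across WT maturation the decoy receptor gene Il1r2 fell by 2.25 (adjusted p = 0.00845). Il12a, the partner of Il12b in IL-12, fell by 5.58 (adjusted p = 0.0143), from a mean of 0.325 CPM (SD 0.355) to 0. That value is a ratio to 0 for a gene near the floor in WT, so it is given as a description. In cKO on day 3 the mean of Il12a was 0.996 CPM.

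**Figure D2:**
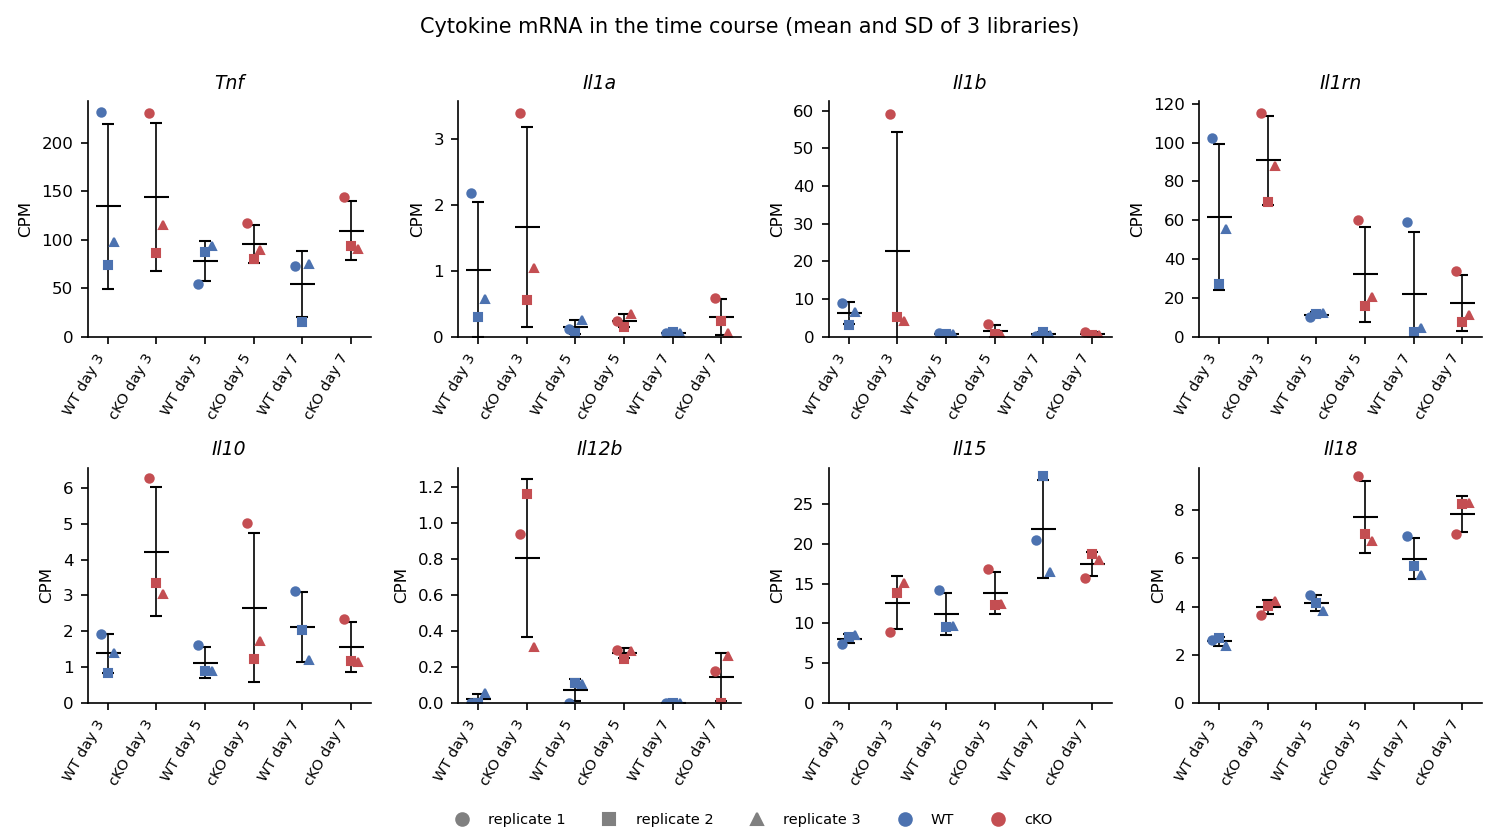
CPM of 8 members by day of culture for WT (blue) and cKO (red) cells, with 1 point per library, the replicate number as the symbol, and the mean and SD of 3 libraries as bars. Il18 in cKO lay above WT on days 3, 5 and 7, and Il1b fell in both genotypes between day 3 and day 7.

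IFNg, the main macrophage-activating cytokine, was given for 12 h on day 8. In WT, all 6 members with enough counts rose, beside 40.1% of all genes called and 20% called higher. In cKO, 5 of 6 rose, beside 33.6% called and 17.2% called higher. The median log2 fold change of the 6 was 2.17 in both genotypes, against -0.01 and -0.02 over all genes. Il1a, Il1b, Il6 and Il12b had too few counts to be tested.

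Il27, encoding the p28 subunit of IL-27, had the largest change. In WT it went from 1.43, 1.17 and 0.963 CPM to 12.9, 24.0 and 19.6 CPM, a log2 fold change of 3.98 ± 0.32 (adjusted p = 8.30e-06). In cKO it went from 0.568 and 0.587 CPM to 13.3 and 22.9 CPM (5.01 ± 0.43, adjusted p = 2.74e-05). Every treated library of either genotype lay above every untreated one. The cKO value was 5.30 without IFNg replicate 1 and 4.46 without replicate 2, and both passed.

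Il1rn, the receptor antagonist, was at 11.5, 14.4 and 16.1 CPM without and 115, 122 and 143 CPM with IFNg in WT (3.17 ± 0.48, adjusted p = 0.000544). In cKO it was at 15.8 and 22.5 CPM without and 42.9 and 239.7 CPM with IFNg (2.93 ± 0.58, adjusted p = 0.00352). The treated cKO libraries were both above the untreated ones but far apart. The change in cKO was 3.68 without IFNg replicate 1 and 1.14 without replicate 2, and both passed (adjusted p 4.31e-07 and 0.00789).

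Il15, a growth factor for NK cells, was at 14.8, 15.6 and 15.6 CPM without and 79.8, 123 and 92.1 CPM with IFNg in WT (2.68 ± 0.48, adjusted p = 0.00148). In cKO it was at 21.2 and 17.4 CPM without and 18.7 and 124.5 CPM with IFNg (1.97 ± 0.57, adjusted p = 0.0234). IFNg replicate 1 of cKO thus lay within the untreated range, and replicate 2 at the WT level. Without replicate 1 the change was 2.71 (adjusted p = 3.52e-06), without replicate 2 it was -0.08 (adjusted p = 0.876), and the call was also lost without either untreated library (adjusted p from 0.107).

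Il18 rose in WT from 5.27, 5.52 and 4.29 CPM to 13.3, 10.6 and 11.1 CPM (1.22 ± 0.30, adjusted p = 0.00834). In cKO it went from 7.14 and 6.85 CPM to 7.85 and 23.2 CPM (1.30 ± 0.36, adjusted p = 0.0189), again with replicate 1 near the untreated cells. Without IFNg replicate 1 it was 1.75 and passed, without replicate 2 it was 0.14 (adjusted p = 0.823), and the call was also lost without either untreated library.

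Tnf rose in WT from 50.6, 41.1 and 47.2 CPM to 117.5, 176 and 144 CPM (1.65 ± 0.36, adjusted p = 0.00469). In cKO it was at 62.8 and 68.2 CPM without and 30.2 and 119 CPM with IFNg, a difference of 0.26 ± 0.44 that did not pass (adjusted p = 0.686). The 2 treated cKO libraries lay on either side of the untreated ones. Without IFNg replicate 1 the value was 0.89 and passed (adjusted p = 0.00433), and without replicate 2 it was -1.14 (adjusted p = 0.00718).

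Il10 rose in WT from 2.09, 2.76 and 2.45 CPM to 4.18, 6.70 and 6.62 CPM (1.25 ± 0.26, adjusted p = 0.00341). In cKO it rose from 2.68 and 2.64 CPM to 10.9 and 15.6 CPM (2.36 ± 0.31, adjusted p = 0.000346), a call kept whichever library was left out (2.57 without IFNg replicate 1 and 2.0 without replicate 2). Il12b had 0 counts in untreated WT and 17 after IFNg, which put the exact 95% lower limit of the ratio at 5.08 (counting error only). The 2 treated cKO libraries held 1 count of Il12b. Il1a had 3 counts in untreated and 10 in treated WT, and 10 in untreated and 0 in treated cKO.

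Between genotypes on day 8, 0 of 6 members were called without treatment (0.612% of all genes; 0 at an unadjusted edgeR p under 0.05 and 0 by DESeq2). With IFNg, 1 of 6 was called, beside 4.83%. Il10 was higher in cKO by 1.24 ± 0.27 (adjusted p = 0.0320), the cKO libraries lying above all 3 WT libraries. That call was lost without WT replicate 1, 2 or 3 or cKO replicate 2 (adjusted p 0.0570 to 0.110). Without cKO replicate 1, 3 members were called: Il10 (1.45), Il18 (1.01) and Il1rn (0.94). Without cKO replicate 2, 3 members were called lower in cKO: Tnf (-2.30), Il15 (-2.42) and Il1rn (-1.59, adjusted p = 0.000981). B cell markers summed to 11.6 to 26.5 CPM in treated WT and 4.12 to 4.83 CPM in treated cKO, and their part in the Il10 call was not tested.

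The difference between the genotypes in the IFNg response was called for 0 of 6 members and 0% of all genes (2 members at an unadjusted edgeR p under 0.05, 0 by DESeq2). It was -1.40 ± 0.57 for Tnf (adjusted p = 0.572) and 1.11 ± 0.40 for Il10 (adjusted p = 0.556). Without cKO IFNg replicate 2, which leaves replicate 1 as the 1 treated cKO library, 3 members passed: Tnf (-2.80, adjusted p = 0.000222), Il1rn (-2.03, adjusted p = 0.00139) and Il15 (-2.75, adjusted p = 0.000470). Without replicate 1 instead, which leaves replicate 2, 0 of 6 passed, and the values were -0.74 for Tnf (adjusted p = 0.229), 0.53 for Il1rn (adjusted p = 0.413) and 0.06 for Il15 (adjusted p = 0.958). The Il10 difference was 1.34 without replicate 1 and 0.75 without replicate 2 (adjusted p = 0.168 and 0.297).

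Of the related genes in WT, 7 of 12 receptors rose with IFNg and 4 fell, 9 of 9 processing and release genes rose, 6 of 9 feedback regulators rose and 2 fell, 1 of 4 decoys and binding proteins rose, and 3 of 12 other cytokines rose and 3 fell. The 1 partner subunit tested was not called. All genes tested were called at 40.1% in WT and 33.6% in cKO, with 20% and 17.2% called higher. In cKO, 7 receptors rose and 3 fell, 6 of the 9 processing and release genes rose, 4 feedback regulators rose and 2 fell, and the counts of the other lists were those of WT. The receptor gene Il12rb1 rose by 9.54 in WT and 9.51 in cKO, the signalling inhibitor Socs1 by 7.0 and 6.55, Tnfsf10 by 6.05 and 5.02, and Il18bp, which encodes the protein that binds and neutralises IL-18, by 4.39 and 4.05, with the highest adjusted p 0.000230. The phosphatase gene Dusp1 fell by 2.54 in WT (adjusted p = 4.00e-05) and by 1.63 in cKO (adjusted p = 0.00354). In a comparison chosen after seeing the data, the cKO changes without IFNg replicate 1 and without replicate 2 were 5.68 and 3.77 for Tnfsf10, 4.70 and 2.69 for Il18bp, 9.34 and 9.67 for Il12rb1, 6.32 and 6.75 for Socs1 and -2.15 and -0.94 for Dusp1, and all passed (highest adjusted p = 0.0118). The receptors kept counts of 7 higher and 3 lower in both fits, while 7 and 5 processing and release genes were called higher and 3 and 5 other cytokines lower. The summed dendritic cell markers were 0.956 to 1.76 CPM in untreated and 6.11 to 8.04 CPM in treated WT, with Siglech at 0 in both, and their part in the result was not tested.

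**Figure D3:**
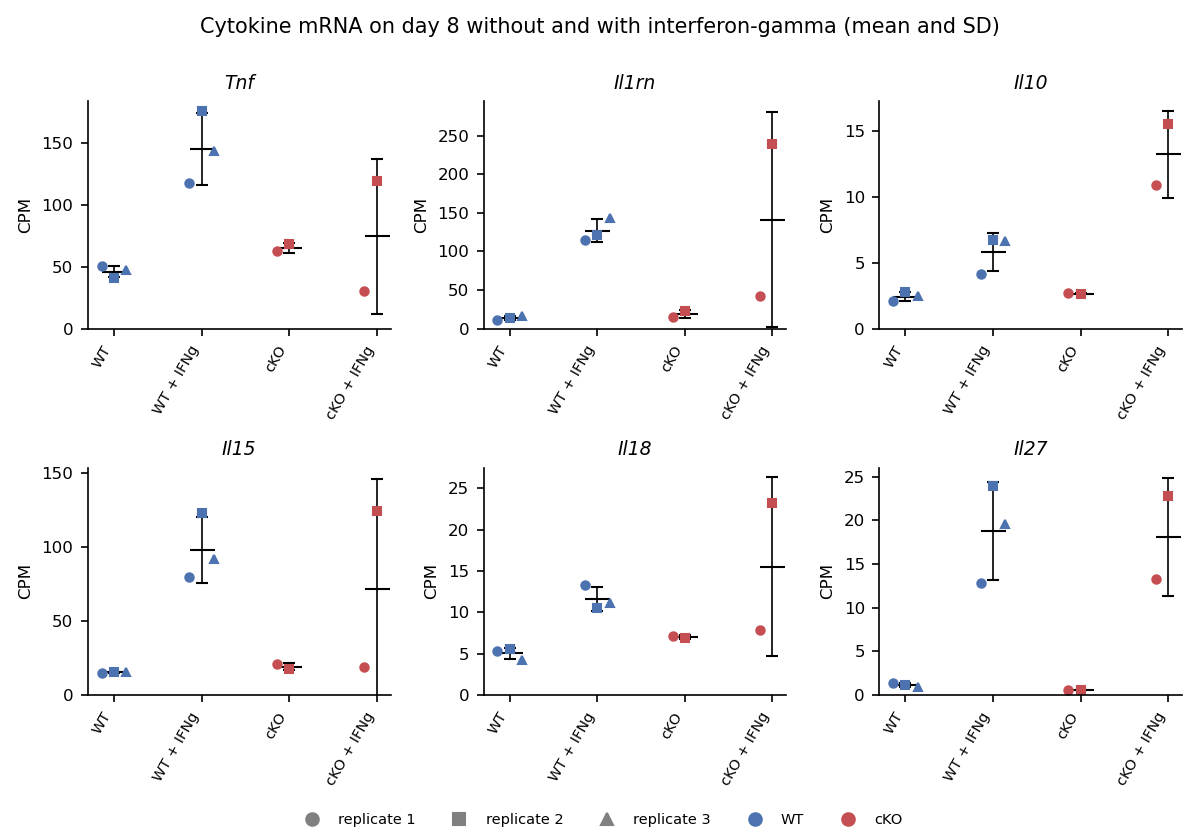
CPM of 6 members on day 8 without and with 12 h of IFNg in WT (blue, 3 libraries per group) and cKO (red, 2 libraries per group), with 1 point per library, the replicate number as the symbol, and the mean and SD as bars. In cKO, IFNg replicate 1 lay at 18.7 CPM of Il15 and replicate 2 at 124.5 CPM, while both rose in Il27 and Il10.

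In peritoneal macrophages, the resident cells of the abdominal cavity, 0 of 8 members differed between genotypes (edgeR, 0.971% of all genes; 1 at an unadjusted p under 0.05 and 0 by DESeq2). The 4 peritoneal macrophage markers, Gata6 among them, summed to 3556 to 4330 CPM. Il18 was at 23.04, 14.8 and 13.8 CPM in WT and 17.3, 18.5 and 13.8 CPM in cKO, and Il15 at 20.1, 11.9 and 21.7 CPM and 23.2, 17.2 and 16.8 CPM. Both overlapped between genotypes, at -0.04 ± 0.24 and 0.09 ± 0.26.

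Il1a was at 4.16, 2.56 and 3.87 CPM in WT and 5.39, 9.77 and 5.85 CPM in cKO (1.0 ± 0.33, adjusted p = 0.326). Il6 was at 3.04, 1.99 and 3.01 CPM and 5.48, 3.06 and 4.94 CPM (0.74 ± 0.33, adjusted p = 0.557). Tnf was at 0.112, 0.213 and 0.501 CPM and 0.599, 0.897 and 0.650 CPM (1.19 ± 0.57, adjusted p = 0.596). In these 3 genes every cKO library lay above every WT library, but none passed. How many of all genes lay apart in this way was not counted. Il1b, Il1rn and Il27 overlapped, and Il10 and Il12b were at 0.385 CPM or less in each library. Of the related lists only Il1r1, the signalling IL-1 receptor, was called (1.82, adjusted p = 0.0138), 1 of 16 receptors tested. The neutrophil markers summed to 11.6 to 23.5 CPM in 5 libraries and 73.5 CPM in WT replicate 2, which also held the highest Il1b (7.17 CPM).

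In the antibody experiment the members were compared between genotypes within each arm, and between arms within each genotype. The comparisons with the control antibody share its libraries. Il1rn was higher in cKO without antibody and with the control antibody, Il1a was lower in cKO without antibody, and in WT 5 members were higher with the IFNAR1 antibody than with the control antibody. Of the 10 members, 9 were tested, since Il12b had at most 3 counts in any arm.

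Between genotypes, 2 of 9 members were called without antibody (beside 7.1% of all genes), 1 with the control antibody (4.45%) and 0 with the IFNAR1 antibody (0.675%; 2 at an unadjusted edgeR p under 0.05 and 1 by DESeq2, Il1rn). Il1rn was at 15.03, 13.1 and 12.7 CPM in WT and 35.6, 22.2 and 25.8 CPM in cKO without antibody. With the control antibody it was at 8.26, 6.06 and 9.06 CPM and 22.0, 20.6 and 24.4 CPM, and with the IFNAR1 antibody at 18.8, 22.1 and 17.7 CPM and 42.1, 46.8 and 26.4 CPM. In each arm all cKO libraries lay above all WT libraries. The differences were 1.03 ± 0.22 (adjusted p = 0.0110), 1.52 ± 0.23 (adjusted p = 0.00105) and 0.98 ± 0.22 (adjusted p = 0.0519). The first was lost without WT replicate 2, WT replicate 3 or cKO replicate 1 (adjusted p 0.0563 to 0.0654).

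Il1a was at 2.74, 4.52 and 4.15 CPM in WT and 1.39, 0.961 and 1.26 CPM in cKO without antibody (-1.64 ± 0.31, adjusted p = 0.00592), a call that held whichever library was left out. With the control antibody the values were 1.89, 2.44 and 3.11 CPM and 2.17, 2.17 and 3.42 CPM, which overlapped (0.06 ± 0.31, adjusted p = 0.972). With the IFNAR1 antibody cKO was again below WT in every library (-1.06 ± 0.31, adjusted p = 0.181).

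Between antibodies, 5 of 9 members were called higher with IFNAR1 than with control antibody in WT, beside 9.89% of all genes called and 6.83% called higher. In cKO 1 was, beside 4.03% called. The members' median difference was 1.20 in WT and 1.02 in cKO, against 0.01 over all genes in each. Il27 was at 0.560, 0.510 and 0.824 CPM with control and 2.92, 3.14 and 1.43 CPM with IFNAR1 antibody in WT (2.0 ± 0.46, adjusted p = 0.0149). In cKO it was at 0.389, 0.361 and 0.104 CPM and 2.79, 1.10 and 0.953 CPM (2.39 ± 0.52, adjusted p = 0.0210). The arms did not overlap in either genotype. The WT call was lost without control replicate 1 or 2 or IFNAR1 replicate 1 (adjusted p 0.0603 to 0.0930). The cKO call was lost without control replicate 2 or 3 or IFNAR1 replicate 1, the last giving 1.71 (adjusted p 0.0740 to 0.116).

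The other 4 members called in WT were Il1rn (1.33 ± 0.22, adjusted p = 0.00389), Tnf (1.43 ± 0.41, adjusted p = 0.0391), Il10 (1.35 ± 0.34, adjusted p = 0.0230) and Il15 (1.20 ± 0.30, adjusted p = 0.0245). Tnf was at 19.3, 12.4 and 12.4 CPM with control and 41.4, 53.6 and 23.9 CPM with IFNAR1 antibody. Il15 was at 11.9, 12.8 and 13.9 CPM and 35.5, 36.8 and 16.4 CPM, with IFNAR1 replicate 3 closest to the control arm. The Il1rn call held whichever library was left out. Tnf and Il15 were lost without control replicate 1, 2 or 3 or IFNAR1 replicate 1 or 2 (adjusted p 0.0595 to 0.148), and Il10 without control replicate 1, 2 or 3 or IFNAR1 replicate 2 (adjusted p 0.0536 to 0.0971).

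The control antibody itself was compared with no antibody. In WT, 4 of 9 members were lower with it (Il1rn, Il10, Il15 and Il27), beside 8.9% of all genes called and 5.63% called lower, and in cKO 0 were called, beside 1.46% (4 at an unadjusted edgeR p under 0.05 and 1 by DESeq2, Il27). In WT, Il27 was at 2.69, 2.07 and 2.33 CPM without antibody and at the control values above (-1.92 ± 0.46, adjusted p = 0.0209). Il10 was at 8.16, 3.72 and 4.46 CPM without and 2.17, 2.15 and 1.74 CPM with control antibody (-1.42 ± 0.34, adjusted p = 0.0212). Both arms lay apart in these genes. The other calls were Il15 (-1.09 ± 0.30, adjusted p = 0.0387) and Il1rn (-0.81 ± 0.22, adjusted p = 0.0366).

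These WT calls did not stand without single libraries. Il1rn was lost whichever of the 6 was left out and Il15 for each but replicate 1 of the arm without antibody. Il10 was lost without replicate 1 of the arm without antibody or control replicate 1, 2 or 3, and Il27 without replicate 3 of the arm without antibody or control replicate 1, 2 or 3 (adjusted p 0.0503 to 0.185). In cKO, Il27 was at 1.28, 1.36 and 0.841 CPM without antibody and fell to the control values above by 1.89 ± 0.52, which did not pass (adjusted p = 0.0865). A comparison of the IFNAR1 antibody with no antibody, chosen after seeing the data, called 0 of 9 members in WT (0% of all genes) and 0 in cKO (0.145%), with 1 member at an unadjusted edgeR p under 0.05 in each and 0 by DESeq2. Il27 differed by 0.08 ± 0.40 in WT and 0.50 ± 0.44 in cKO.

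The genotypes' responses to IFNAR1 against control antibody did not differ for any member (0 of 9, 0% of all genes; 2 at an unadjusted edgeR p under 0.05, 0 by DESeq2). In WT, B cell markers moved with the arms: they summed to 13.3 to 21.3 CPM without antibody, 7.65 to 9.06 CPM with control and 16.2 to 34.7 CPM with IFNAR1 antibody, the control arm below both others without overlap. In cKO they were at 6.35 to 10.1, 7.16 to 7.78 and 9.34 to 18.5 CPM. Stromal markers moved with the arms in cKO, where they summed to 36.6 to 78.97 CPM without antibody, 164 to 306 CPM with control antibody and 42.4 to 87.2 CPM with IFNAR1 antibody. In WT they overlapped between all arms, at 13.3 to 98.4, 13.1 to 225 and 5.65 to 110 CPM. The part of these markers in the cytokine values was not tested.

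Of the related genes, 3 of 13 receptors, 1 of 4 decoys and binding proteins, 1 of 9 processing and release genes, 1 of 9 feedback regulators, the 1 partner subunit tested and 0 of 12 other cytokines were higher with IFNAR1 than with control antibody in WT, and none was lower. Among them were Sigirr, a gene of an inhibitory receptor (2.15, adjusted p = 0.00475), Socs1 (2.11, adjusted p = 0.0446), Il12rb2 (1.72, adjusted p = 0.0420) and Il12rb1 (1.27, adjusted p = 0.0387). In cKO, Sigirr was higher (1.66, adjusted p = 0.0303) and 1 processing and release gene was lower. The share of all genes called between these antibodies was 9.89% in WT and 4.03% in cKO. Between genotypes, Csf1 was higher in cKO with the control antibody (2.78, adjusted p = 0.00196), and Il18bp was lower in cKO without antibody (-1.42, adjusted p = 0.0102).

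**Figure D4:**
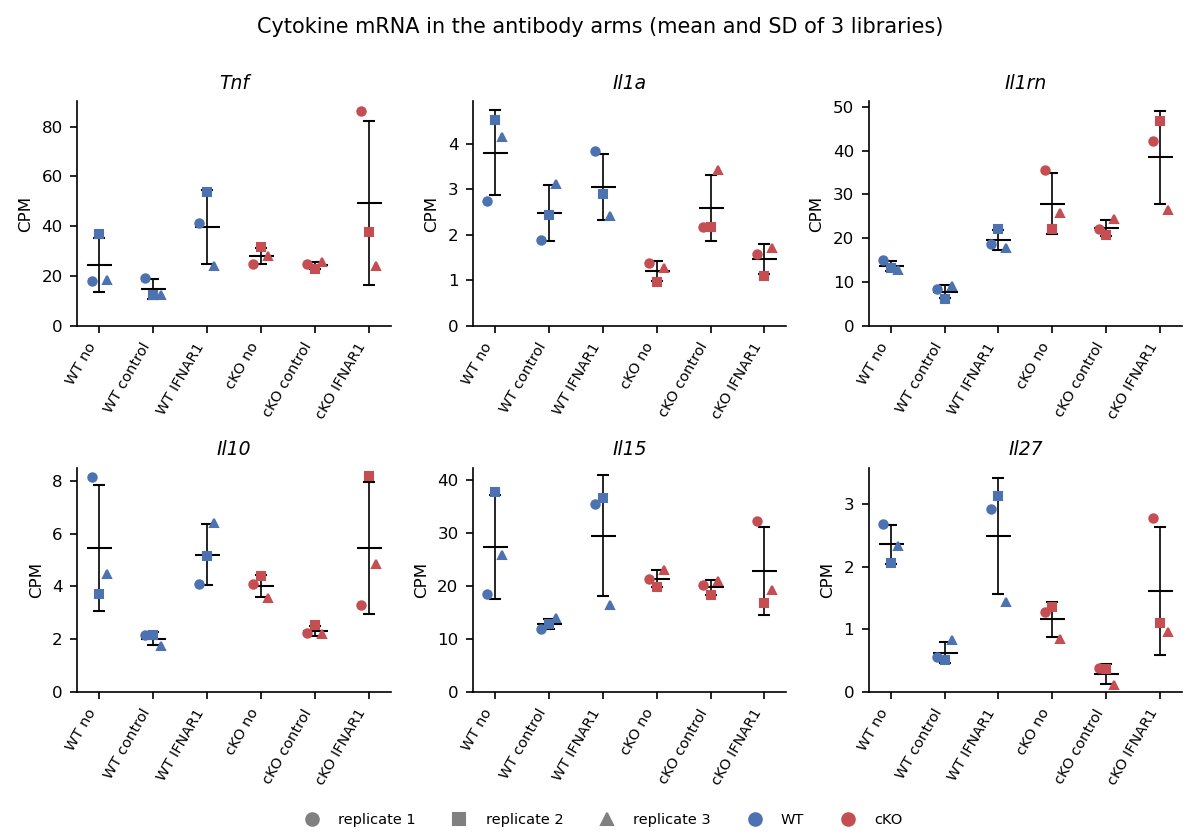
CPM of 6 members without antibody, with the control antibody and with the IFNAR1 antibody in WT (blue) and cKO (red), with 1 point per library, the replicate number as the symbol, and the mean and SD of 3 libraries as bars. In WT, Il10 and Il27 were lowest with the control antibody, and Il1rn in cKO lay above WT in every arm.

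The 3 sets of WT and cKO BMDMs gave the deepest libraries. Il12b was higher in cKO in all 3 sets. Tnf was higher and Il15 lower in cKO in sets A and C, while in set B Tnf did not differ, Il15 and Il18 were higher and Il1rn was lower. Of 9 members tested (Il6 had too few counts), 3 were called in set A, 4 in set B and 4 in set C, beside 34.7%, 21% and 34.9% of all genes. Each count includes Il12b, which passed the count filter only through cKO and dKO libraries, where it was high.

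Il12b was at 0.0433, 0 and 0 CPM in WT and 1.54, 2.29 and 1.29 CPM in cKO of set A, 1 count against 156. In set B it was at 0.0253, 0.0486 and 0 CPM and 0.400, 0.125 and 0.237 CPM, 3 counts against 32. In set C it was at 0.0605, 0 and 0.0434 CPM and 1.98, 2.67 and 1.07 CPM, 3 counts against 189. Every cKO library lay above every WT library of its set. The ratios, with 95% exact intervals for counting error only, were 129 (22.8 to 5113), 9.60 (3.0 to 49.0) and 48.4 (16.3 to 237). The edgeR test called all 3, with adjusted p 7.69e-07, 0.00797 and 6.41e-07. Il12b passed the count filter only through cKO and dKO libraries, where it was high, so these p-values are given as a description beside the counts. The set B call was lost without cKO replicate 1 (adjusted p = 0.0605), and the fitted fold changes rest on the few WT counts, moving from 6.64 to 8.80 in set A without WT replicate 1.

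The 6 dendritic cell markers moved with Il12b. They summed to 4.28 to 6.93 CPM in WT and 13.3 to 17.3 CPM in cKO of set A, 1.64 to 2.51 and 5.50 to 6.26 CPM in set B, and 5.62 to 5.92 and 12.0 to 20.9 CPM in set C, with all 6 detected in every group 5 of 6 called higher in cKO in each set and the sixth, Cd209a, called lower in sets A and C. Neutrophil markers summed to 61.1 to 115 and 198 to 285 CPM in set A, 104 to 179 and 153 to 172 CPM in set B, and 68.3 to 124 and 197 to 323 CPM in set C. Their part in the cytokine differences was not tested.

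Tnf was at 43.4, 32.1 and 24.7 CPM in WT and 95.8, 83.8 and 94.4 CPM in cKO of set A (1.45 ± 0.13, adjusted p = 9.93e-09). In set C it was at 23.3, 28.6 and 22.3 CPM and 75.5, 79.5 and 73.7 CPM (1.62 ± 0.13, adjusted p = 1.75e-09). In set B it was at 79.2, 70.9 and 83.3 CPM and 80.7, 76.2 and 75.5 CPM (-0.01 ± 0.12, adjusted p = 0.985). The 9 cKO libraries thus lay between 73.7 and 95.8 CPM, while WT of set B lay above WT of sets A and C.

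Il1rn was at 36.9, 8.32 and 7.15 CPM in WT and 39.4, 30.1 and 36.1 CPM in cKO of set A (1.02 ± 0.45, adjusted p = 0.0813). In set C it was at 19.1, 7.56 and 8.30 CPM and 30.7, 25.7 and 31.2 CPM (1.31 ± 0.45, adjusted p = 0.0274), a call lost without WT replicate 2 or 3 or cKO replicate 1 or 3 (adjusted p 0.0583 to 0.105). In set B it was at 90.0, 98.0 and 91.2 CPM and 11.9, 26.5 and 13.2 CPM (-2.44 ± 0.45, adjusted p = 0.00027). The direction was opposite in set B, where WT was several times higher than in the other WT sets.

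Il15 was at 22.5 to 32.2 CPM in WT and 19.4 to 20.3 CPM in cKO of set A (-0.49 ± 0.11, adjusted p = 0.000817), and at 24.0 to 31.0 and 17.5 to 19.8 CPM in set C (-0.52 ± 0.11, adjusted p = 0.00042). In set B it was at 12.96, 11.8 and 12.3 CPM and 20.4, 22.3 and 22.1 CPM (0.81 ± 0.11, adjusted p = 4.29e-06). Il18 was at 4.37, 4.81 and 4.11 CPM in WT and 6.38, 7.72 and 6.29 CPM in cKO of set B (0.61 ± 0.12, adjusted p = 0.000582), and between 5.79 and 8.30 CPM in all 12 libraries of sets A and C (0.06 ± 0.12 and 0.07 ± 0.12). The cKO libraries of the 3 sets lay close together in these genes and the WT libraries did not. B cell markers summed to 110 to 188 CPM in WT and 43.8 to 61.2 CPM in cKO of set A, 95.2 to 193 and 39.6 to 61.3 CPM in set C, and 20.3 to 26.8 and 33.9 to 40.3 CPM in set B, lower in cKO where Il15 was and higher where Il15 was, and their part was not tested.

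The cKO effect in set B minus the mean of sets A and C, a comparison chosen after seeing the data, was called for 4 of 9 members, beside 27% of all genes. It was -1.54 ± 0.15 for Tnf, -3.60 ± 0.55 for Il1rn, 1.31 ± 0.13 for Il15 and 0.55 ± 0.15 for Il18, and -3.0 ± 1.53 for Il12b, which did not pass (adjusted p = 0.155). The labels do not say how the sets differ. WT libraries of sets A and C with the same number deviated together (correlations 0.14 to 0.39, against -0.34 to 0.11 for libraries of these sets with different numbers), and the labels do not say whether the sets share animals. In cKO these correlations were -0.01 to 0.24 and -0.24 to 0.14. Like results in sets A and C may therefore not be independent of each other. In both, WT replicate 1 was the highest in Il1b (6.33 CPM in set A and 5.59 CPM in set C, with 0.493 CPM or less in the other WT libraries) and in Il10 (5.85 and 6.38 CPM, with 1.78 CPM or less). Il1a, Il1b, Il10 and Il27 were not called in any set.

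Of the related genes in set A, 5 of 15 receptors were higher and 2 lower, 2 of 4 decoys and binding proteins were higher, 3 of 9 processing and release genes were higher and 2 lower, 2 of 9 feedback regulators were higher and 1 lower, and 6 of 13 other cytokines were higher and 2 lower. These counts stand beside 34.7% of all genes called in set A. The median of the other cytokines was 0.88, 0.42 and 0.85 in sets A, B and C. Il1r2, the IL-1 decoy receptor, was higher in cKO in all 3 sets (3.25, 3.51 and 2.80, adjusted p 1.76e-08 or less). Csf1 was higher in sets A and C (1.92 and 1.90, adjusted p 1.04e-06 or less) and Il7 in sets B and C (1.80 and 2.29, adjusted p 0.00403 or less). In set B, Il12rb1 (2.60, adjusted p = 1.21e-08) and Sigirr (1.79, adjusted p = 9.61e-08) were also higher.

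The dKOs asked whether DNA sensing through STING, RNA sensing through MAVS or the interferon regulator IRF7 bears on the changes of cKO cells. Each was compared with the mean of the 3 cKO sets, which the 3 comparisons share. Where the cKO sets differ from each other, that difference enters the comparison. If sets A and C share animals, the cKO libraries are not all independent and the SEs and p-values are too small. Of 9 members, 1 was called in each: Tnf in Sting dKO (beside 36.1% of all genes), Il12b in Mavs dKO (8.79%) and Tnf in Irf7 dKO (9.85%). Il12b passed the count filter only through cKO and dKO libraries, so its calls against cKO are given as a description.

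Tnf was at 55.1, 61.1 and 61.3 CPM in Sting dKO and 55.8, 61.6 and 64.0 CPM in Irf7 dKO, below all 9 cKO libraries. The differences were -0.46 ± 0.10 (adjusted p = 0.00137) and -0.43 ± 0.10 (adjusted p = 0.00982). In Mavs dKO it was at 76.1, 71.0 and 70.2 CPM (-0.17 ± 0.10, adjusted p = 0.367). The Sting dKO call held whichever library was left out and against each set alone. The Irf7 dKO call was lost without Irf7 dKO replicate 1 (-0.37, adjusted p = 0.0814) and against set C alone (-0.33, adjusted p = 0.255). Irf7 dKO also held less H3.3 mRNA than cKO: H3f3b was at 71.9 to 147 CPM against 187 to 220.3 CPM in the cKO sets (-0.73, adjusted p = 0.00148) and H3f3a at 3.78 to 5.33 against 7.30 to 11.7 CPM (-0.91, adjusted p = 4.67e-05). Neither was called in Sting or Mavs dKO. Neutrophil markers summed to 85.0 to 116 CPM in Irf7 dKO, 58.3 to 120 CPM in Mavs dKO and 244 to 255 CPM in Sting dKO, against 153 to 323 CPM in the cKO sets. The part of these levels in the Tnf values was not tested.

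Il12b was at 0.958, 1.33 and 0.999 CPM in Sting dKO, 0.334, 0.280 and 0.439 CPM in Mavs dKO and 0.135, 0.687 and 0.413 CPM in Irf7 dKO. The Mavs and Irf7 dKO values thus fell among or just above those of cKO set B and below those of sets A and C. Against the mean of the sets, the differences were 0.22 ± 0.33 (adjusted p = 0.645), -1.42 ± 0.40 (adjusted p = 0.0251) and -1.15 ± 0.39 (adjusted p = 0.0660). They turned on the set: in Mavs dKO the value was -2.28 against set A and -2.41 against set C, both called, and 0.43 against set B (adjusted p = 1). In Irf7 dKO it was -2.0 and -2.14, both called, against sets A and C and 0.71 against set B (adjusted p = 0.372), and in Sting dKO it was 2.07 against set B (adjusted p = 0.00139). The Mavs dKO call was also lost without cKO set B replicate 1 or Mavs dKO replicate 1, 2 or 3 (adjusted p 0.0594 to 0.126). The summed dendritic cell markers were 7.55 to 10.5 CPM in Sting dKO, 4.13 to 4.38 CPM in Mavs dKO and 2.84 to 8.06 CPM in Irf7 dKO, and stromal markers 164 to 201 CPM, 82.1 to 294 CPM and 29.6 to 47.8 CPM, against 23.6 to 70.0 CPM in the cKO sets. Their part was not tested.

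The other members did not pass. Il10 was at 5.44, 5.63 and 5.59 CPM in Mavs dKO, next to 5.18, 6.42 and 5.18 CPM in cKO of set B and 2.01 to 3.21 CPM in cKO of sets A and C (0.80 ± 0.32 against the mean, adjusted p = 0.128). Il1rn in Irf7 dKO was at 59.5, 25.7 and 24.7 CPM, the first library standing apart. Il15 lay between 16.7 and 22.2 CPM and Il18 between 6.26 and 7.57 CPM in all 9 dKO libraries. Of the related genes, the Socs3 gene of a signalling inhibitor was higher in Sting dKO (1.34, adjusted p = 0.00515), as was Il18bp (1.14, adjusted p = 4.53e-06), and Tnfsf13b, encoding a B cell survival factor, was lower in Mavs dKO (-1.07, adjusted p = 5.65e-06).

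**Figure D5:**
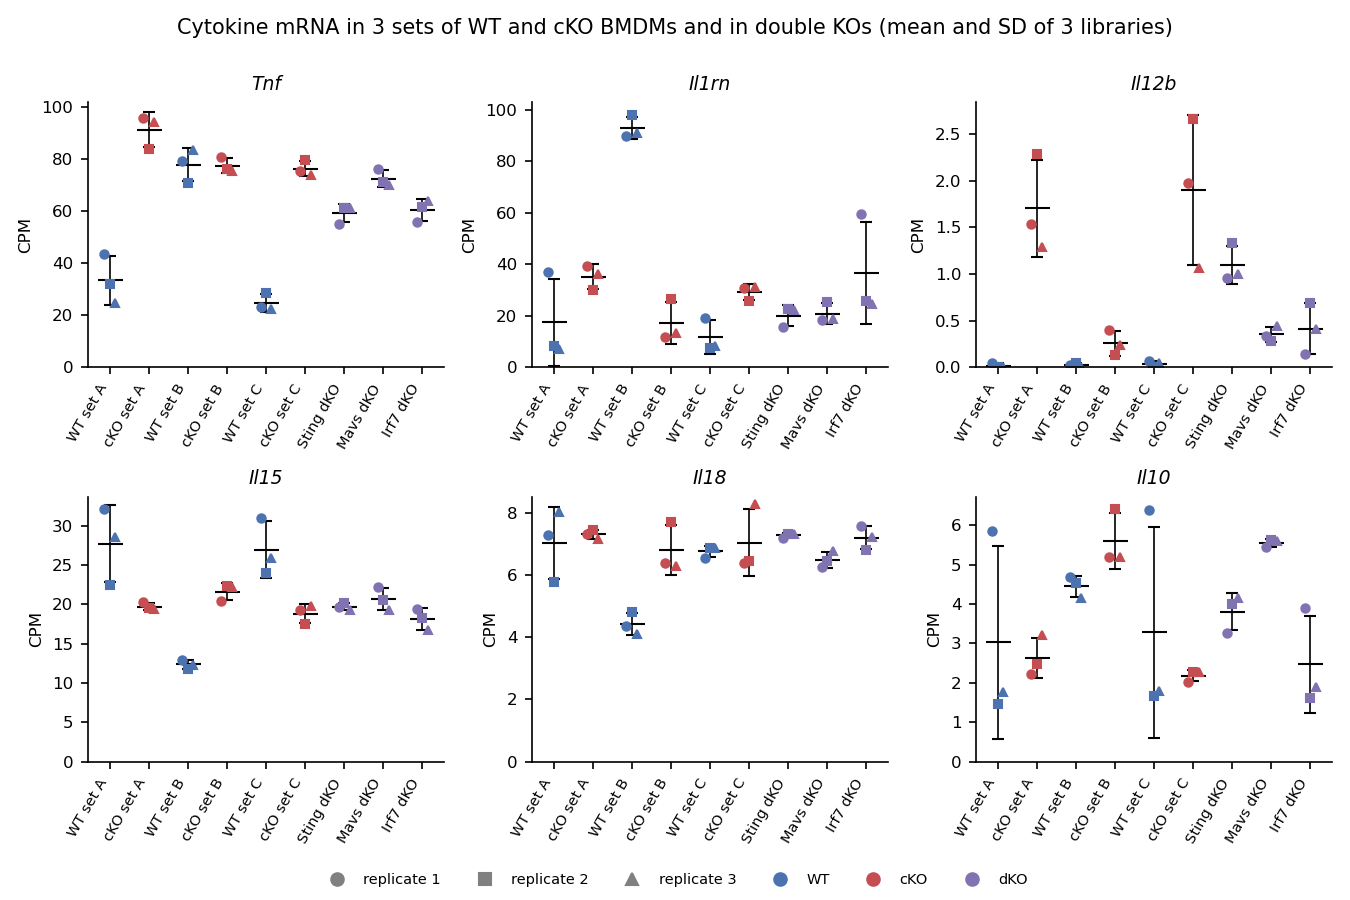
CPM of 6 members in WT (blue) and cKO (red) of sets A, B and C and in the 3 dKOs (purple), with 1 point per library, the replicate number as the symbol, and the mean and SD of 3 libraries as bars. WT of set B stood at 90.0 to 98.0 CPM of Il1rn and 70.9 to 83.3 CPM of Tnf, and Il12b was at 0.0605 CPM or less in every WT library.

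Across the 79 placed libraries, the genes whose log2 CPM, centred within each experiment, ran most like a member were found among 11170 genes tested in every experiment. For Il15 the nearest genes were Sp140, Hltf and Igbp1 (Pearson r 0.87, 0.86 and 0.86), for Il27 Cd40, Tox4 and Irf1 (0.84, 0.83 and 0.83), and for Il18 Phyh, Sp110 and Mndal (0.81, 0.80 and 0.79). For Tnf they were Slc25a25, Traf3 and Etf1 (0.79, 0.75 and 0.74), and for Il1rn Uba1, Igf2bp2 and Abtb2 (0.73, 0.73 and 0.71). The libraries share treatments, cultures and depth, so these values are a description.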

How the data were processed

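RNA of 81 libraries was sequenced after rRNA depletion (BMDMs) or after amplification (peritoneal cells). The authors deposited 1 table of raw gene counts per library, and per the submitters' processing notes cutadapt and STAR with mm10 were used. The unstranded counts were taken, so reads of Il1a, Il1b and Il27 cannot be told from those of Gm14023, Il1bos and Apobr on the other strand (222, 25 and 103 shared exon bases). Counts were tested with edgeR 4.0.16 in R 4.3.3 (filterByExpr, minimum count 10 and total 15; TMM; glmQLFit and glmQLFTest; 1 model per experiment, group means only), with Benjamini-Hochberg adjustment over 12361 to 18083 genes. SEs were derived from the F statistic. Alternatives were DESeq2 1.42.0, RLE scaling, no filter, fewer groups, a replicate block and each library left out. Related genes are named only where adjusted p was under 0.05, the absolute log2 fold change at least 1 and the groups did not overlap, up to 4 higher and 4 lower per comparison. Not every gene that met this rule is named in the text. The members and lists were chosen with earlier results of these data known. Counts were also simulated with a dispersion of 0.04 for every gene and 200 genes changed 2-fold or 4-fold. For day 3 cKO against WT, 157 were recovered among 15456 genes, with 4 false calls. They were 57 of the 2-fold and 100 of the 4-fold changes. Members that vary more than this setting are not covered by these numbers. Libraries with the same replicate number deviated together (every correlation above 0.1 over 3 pairs, from the data only) in cKO against WT on days 3 and 7 and in peritoneal cells, cKO day 7 against 3, WT IFNg, WT control against no antibody and cKO IFNAR1 against no antibody. The 2 day 8 libraries with conflicting labels entered no test.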

Additional observations from a re-analysis of the deposited data

Results flagged for a closer look

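The cKO effect in BMDM set B differed from the mean effect in sets A and C for 4 members, by edgeR's test of the difference itself. The differences were -1.54 for Tnf (adjusted p = 1.73e-07), -3.60 for Il1rn (adjusted p = 3.87e-05), 1.31 for Il15 (adjusted p = 1.63e-07) and 0.55 for Il18 (adjusted p = 0.00824), beside 27% of all genes called. The first 3 were called under all 23 alternatives and Il18 under 22 of 23, the exception being no filter on low counts (0.53, adjusted p = 0.0687). Without WT set A replicate 1 the Il1rn value was -4.21. The comparison was chosen after seeing the data. B cell markers summed to 110 to 188 CPM in WT of set A, 95.2 to 193 CPM in WT of set C and 20.3 to 26.8 CPM in WT of set B, against 33.9 to 61.3 CPM in all cKO libraries, and their part in the difference was not tested.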

How the results depend on the processing

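Of 380 counts of called members under an alternative, 299 were within 1.5 times of the reported count. These include reported counts of 0 that stayed at 0, and like counts can hold different members. The number is therefore not a measure of how well single calls held. Counts elsewhere moved as follows. With no filter on low counts they were 3 (cKO against WT day 3), 7 (cKO day 7 against 3), 2 (cKO against WT with IFNg), 1 (difference in IFNg response), 1 (cKO against WT with IFNAR1 antibody), 3 (cKO, IFNAR1 against control), 2 (Sting dKO), 4 (Mavs dKO) and 4 (Irf7 dKO). With DESeq2 they were 4 (cKO day 7 against 3), 1 (genotypes with IFNAR1 antibody), 3 (cKO, IFNAR1 against control), 1 (cKO, control against none) and 2 (Irf7 dKO). With only the compared groups in the model, in which fewer libraries set the spread, they were 0 (day 5), 4 (cKO day 7 against 3), 2 (cKO IFNg), 0 (genotypes with IFNg), 3 (genotypes with control antibody), 0 (IFNAR1 against control in either genotype), 3 (cKO, control against none) and 3 (Mavs dKO). With the conflicting libraries placed by title, all 3 IFNg counts were 0, and Il1rn in cKO was -0.10; placed by library name, no call changed. Against set A, B or C alone they were 2 (Sting dKO, B), 0 and 2 (Mavs dKO, B and C) and 2 and 2 (Irf7 dKO, A and B), and Il12b in Mavs dKO was 0.43 against set B. The cause was not tested.

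With the replicate number as a block the counts were 2 on day 3 and 5 for cKO day 7 against 3, where the numbers paired the libraries. They also did on day 7, in peritoneal cells, for WT IFNg, WT control against none and cKO IFNAR1 against none, where the block left the counts at 0, 0, 6, 4 and 0. In the other comparisons libraries share only a number: there the block gave 3 for cKO IFNg, 0 for genotypes with IFNg and 1 for cKO control against none (Il27, -2.11), and it added Tnf and Il1rn in WT day 7 against 3 and Il1rn in set A. The numbers of the 2 cKO IFNg pairs ran against each other (correlation -0.19), and with them crossed, a choice made after seeing the data, the block gave 5 calls. Leaving out each library in turn gave 0 to 2 calls (day 3), 0 to 1 (day 5), 2 to 4 and 2 to 6 (WT and cKO day 7 against 3), 6 to 6 and 3 to 6 (WT and cKO IFNg), 0 to 3 (genotypes with IFNg), 0 to 3 (difference in IFNg response), 1 to 2, 1 to 1 and 0 to 1 (genotypes with no, control and IFNAR1 antibody), 1 to 5 and 0 to 2 (IFNAR1 against control, WT and cKO), 0 to 2 and 0 to 0 (control against none), 3 to 4 in each set and 1 to 1, 0 to 1 and 0 to 2 (Sting, Mavs and Irf7 dKO). It was 0 to 0 on day 7, for untreated day 8 cells, for peritoneal cells, for both other interactions and for IFNAR1 against no antibody. Without cKO IFNg replicate 1 or 2, Tnf was 0.89 or -1.14 and Il15 2.71 or -0.076 in the cKO response, and Il1rn 0.94 or -1.59 between genotypes. Where 1 cKO library was left, it was assumed to vary like the other groups. Members under about 10 counts, Il6 and Il12b above all, could not be tested in most experiments.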

Other observations

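The 2 cKO day 8 libraries whose labels conflict on IFNg held different levels of the cytokines IFNg raised in WT. The library titled as treated and named as untreated was at 16.75 CPM of Il15, 0.9803 CPM of Il27, 16.5 CPM of Il1rn, 63.8 CPM of Tnf, 6.62 CPM of Il18 and 1.96 CPM of Il10. The library titled as untreated and named as treated was at 121.2 CPM of Il15, 26.1 CPM of Il27, 288 CPM of Il1rn, 118 CPM of Tnf, 18.3 CPM of Il18 and 16.6 CPM of Il10. No group was given to either from these values.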
